A study of Mus musculus with 3 samples.

Results

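The pannexin genes *Panx1*, *Panx2* and *Panx3* were examined in the embryonic region of early headfold (EHF) stage mouse embryos. They were taken by symbol from the deposited signal table, and all 3 were present among 30854 gene symbols. Total RNA from wild-type embryos of strain Cd-1 had been hybridized to 3 Mouse-6 Illumina arrays, labelled replicates 1, 2 and 3. The arrays form a single group, so that the question they can answer is whether a gene was above background, not whether it differed between genotypes, stages or tissues. The study's text describes embryos cut along the extraembryonic-embryonic junction, with the embryonic part used for RNA. It names the wild-type stock ICR, and the labels give the name Cd-1. The series text speaks of 3 samples per well in triplicates, and whether an array holds 1 embryo or a pool is not settled by it. The spread between arrays may therefore be technical in part. Because the embryonic region holds all germ layers, few cells with much of a transcript and many cells with little of it cannot be told apart.

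Pannexins are membrane proteins that form wide-pored channels between the cytoplasm and the outside of the cell, and through these channels ATP and other small molecules leave. They are related in sequence to the innexins, the gap junction proteins of invertebrates, and resemble connexins in their membrane topology, but their glycosylation hinders docking between cells. *Panx1* is the broadly expressed member. *Panx2* is known mainly from the nervous system and *Panx3* from cartilage, bone and skin. Carbenoxolone, a gap junction blocker derived from glycyrrhetinic acid, also blocks *Panx1* channels.

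None of the 3 pannexin genes met the detection threshold on every array, whereas 20.6% of all symbols did. For a symbol with 1 probe, the detection p is the share of negative-control probes at least as bright. For a symbol with several probes, such as *Panx1*, it was taken as a value combined over them. A gene was taken as detected on an array where its detection p was under 0.01. *Panx1* met this on replicates 1 and 3 and missed it on replicate 2. *Panx2* and *Panx3* met it on no array. *Panx1* was thus 1 of the symbols called on at least 2 arrays, which are 25.6% of the total. Detection on at least 1 array, which 33.0% of all symbols reached, added neither of the others. When levels were tested against background with limma and adjusted over all symbols, *Panx1* passed and *Panx2* and *Panx3* did not, and 25.5% of all symbols passed.

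The background level used below is the lowest signal, on the same array, among single-probe symbols whose detection p was under 0.01 without being 0. It lay at 6.69, 6.66 and 6.58 on the log2 scale on replicates 1, 2 and 3. The median of all symbols lay 0.12, 0.14 and 0.16 below it. None of the 21980 symbols with 1 probe was above this level on an array without being detected there. This follows from the definition, since the detection p of a single probe ranks its signal against the negative controls. For such symbols signal and detection p therefore gave the same call.

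Deposited *Panx1* signals were 7.02 on replicate 1, 6.72 on replicate 2 and 6.73 on replicate 3 on the log2 scale, a mean of 6.82 (SD 0.17, n = 3). On the linear scale these are signals of 129.7, 105.3 and 106.4. All 3 signals exceeded the background level of their array, by 0.33, 0.06 and 0.15 on the log2 scale, which 26.3% of all symbols did. Among symbols with 3 probes, as *Panx1* was taken to have, 1032 of 2361 did so. With 1 probe it was 4572 of 21980, so that this excess was more frequent among 3-probe symbols. Replicate 1 stood highest, and replicates 2 and 3 differed from each other by less than the standard error over beads, which was 4.59 and 4.68 on the linear scale. How this error was combined over the probes of a symbol is not given in the sources used here. The excess over background on replicate 2, 4.49 linear units, was also smaller than that standard error. Its combined detection p-values were 0.00329, 0.161 and 0.00333 in order of replicate. The call that was lost was therefore that of replicate 2, although its deposited signal was close to that of replicate 3. The background level was lower on replicate 3, where the excess over it was 10.7 linear units.

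**Figure D1:**
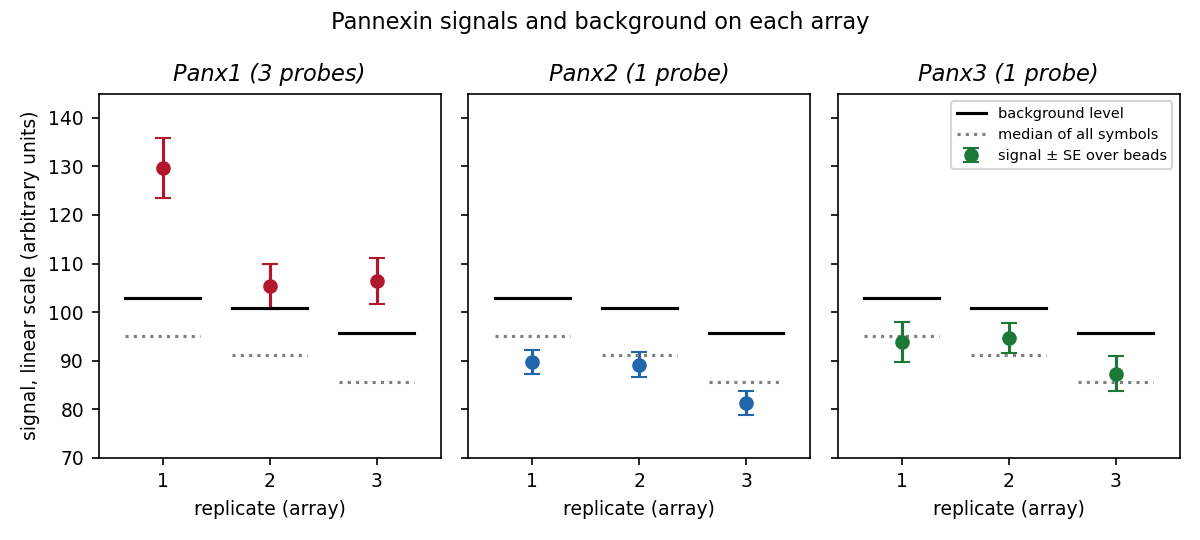
Signal of each pannexin gene on the linear scale (vertical axis, arbitrary units) on the 3 arrays (horizontal axis), with bars for the standard error over beads, a black line for the background level of the array and a dotted line for the median of all symbols. The *Panx1* signals of 129.7, 105.3 and 106.4 lie above the background level on each array, and those of *Panx2* and *Panx3* lie below it.

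After background correction with the normexp model and quantile normalization, the *Panx1* level was 0.84, 0.22 and 0.56 above the background level on replicates 1, 2 and 3. The mean was 0.54 on the log2 scale, with a standard error of 0.17 and a 95% confidence interval from 0.21 to 0.86. The adjusted p of the one-sided limma test was 0.00245. The fit gave every symbol the same standard error, since the shift of the background level between arrays dominated it, and the p-value treats this spread as known. Without replicate 1 the level was 0.35 and no longer passed, with an adjusted p of 0.114 from limma. With the signals as deposited it was 0.18 above background, with an adjusted p of 0.0833 from limma. An exact sign-flip test on the 3 arrays gave a one-sided p of 0.125, the smallest that 3 arrays allow.

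The combined detection p of *Panx1* carries more than the call. Detection p-values of symbols with 1 probe moved in steps of 1 in 936, and those of *Panx1* did not lie on these steps. They lay on the steps given by the sum of 3 such p-values, within 0.001 of a whole step on every array, at 253, 926 and 254 steps. A p-value of a symbol with 1 probe lay on steps of this kind in 1.81% of cases. *Panx1* was accordingly taken as measured by 3 probes whose signals and p-values were combined, although its mean bead numbers of 47, 45 and 46 are whole and would by themselves allow 1 probe. In p-values, these sums over the 3 probes came to 0.270, 0.989 and 0.271 in order of replicate.

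These sums bound the single probes. If the signal of a symbol is an average over its probes, the brightest *Panx1* probe was at least as bright as the mean, which was above the background level on each array. On every array, replicate 2 included, at least 1 probe therefore passed the threshold of 0.01 by itself. The probe with the highest p then had a detection p of at least 0.130 on replicate 1, 0.490 on replicate 2 and 0.131 on replicate 3. At least 1 *Panx1* probe was thus above background on each array and at least 1 was not, even at a detection p of 0.05. Whether the same probe was high on all arrays cannot be read from combined values, and the probe sequences were not used here. The position of the probes in the transcript was therefore not examined.

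**Figure D2:**
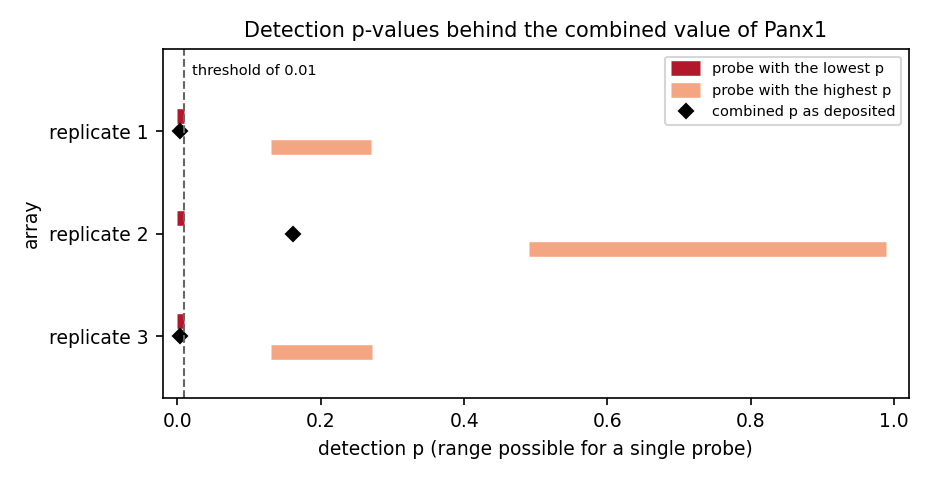
Detection p (horizontal axis, no unit) that the 3 *Panx1* probes could have on each array (vertical axis). Dark bars give the range for the probe with the lowest p, light bars that for the probe with the highest p, diamonds the combined value as deposited and the dashed line the threshold of 0.01. The light bars begin at 0.130, 0.490 and 0.131 and end at the sums of 0.270, 0.989 and 0.271, so that they do not reach the threshold on any array.

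Disagreement of this kind was frequent among symbols with 3 probes. Of 2361 such symbols, 1032 exceeded the background level in mean signal on all arrays, and 588 of these (57.0%) were not detected on all 3. Among them 181 were, like *Panx1*, detected on 2 arrays. The share of 3-probe symbols detected on all arrays was 19.9%, near the 20.8% of symbols with 1 probe. If signals were averaged over probes, the value of *Panx1* can understate the signal of its brightest probe.

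*Panx2* was represented by 1 probe. Its log2 signals on the arrays were 6.49, 6.48 and 6.34 in order of replicate, a mean of 6.44 (SD 0.08, n = 3), from 32, 51 and 34 beads. It lay below the background level on all arrays, by 13.3, 11.7 and 14.4 on the linear scale in order of replicate, each at least 4.54 times the bead standard error. Its detection p was 0.635, 0.404 and 0.698. Between 40.4% and 69.8% of the negative-control probes were thus at least as bright as the *Panx2* probe. Relative to the median of all symbols it was -0.08, -0.04 and -0.08 on the log2 scale. After normalization the level had an SD of 0.04 over the 3 arrays. The offset added in processing sets a floor that narrows the spread of such low signals. Agreement between arrays is therefore not read from this SD. Relative to the background level, the normalized level was -0.59, -0.66 and -1.0 on replicates 1, 2 and 3. The mean was -0.75, with a 95% confidence interval from -1.08 to -0.43. Expression of *Panx2* was therefore not detectable with this probe, which bounds its signal by the background level and does not show that the transcript was absent.

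*Panx3* was represented by 1 probe as well. Its log2 signals on replicates 1, 2 and 3 were 6.55, 6.57 and 6.45, a mean of 6.52 (SD 0.06, n = 3), from 27, 37 and 37 beads. The signals fell short of the background level by 9.16, 6.1 and 8.35 on the linear scale, which is 2.24, 2.01 and 2.32 times the bead standard error. Its detection p was 0.253, 0.0833 and 0.176, so that no array met even a threshold of 0.05. Replicate 2 came closest, with 8.33% of the negative-control probes at least as bright. The normalized level was -0.50 relative to the background level, with a 95% confidence interval from -0.83 to -0.18. Against another reference, the median level of single-probe symbols whose detection p exceeded 0.5, *Panx3* was 0.29 higher, with an adjusted p of 0.0238 from limma. Its own detection p was under 0.5 on every array, so this direction was fixed by the choice of reference. No conclusion on expression is drawn from that test. *Panx2* was 0.04 above this lower reference, with an adjusted p of 0.261 from limma. A probe that is brighter than the median of these dim symbols can still be below many negative controls, as the detection p of *Panx3* shows. Levels of the 3 genes were not ranked, since probes differ in how well they hybridize.

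**Figure D3:**
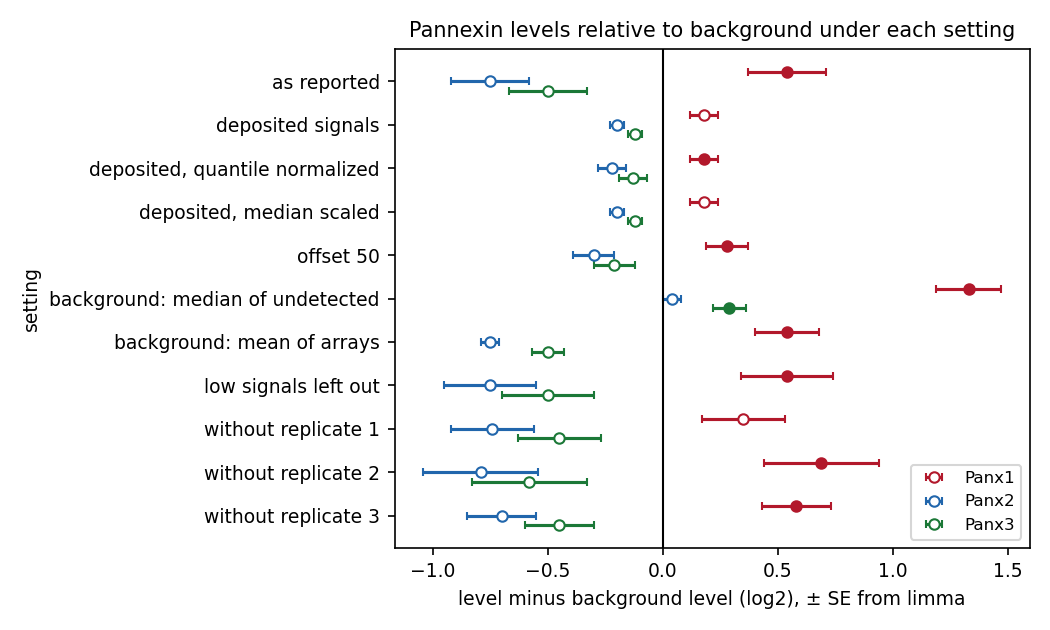
Level minus background level (horizontal axis, log2) of the 3 pannexin genes under each setting (vertical axis), with bars for the standard error from limma and filled points where the adjusted p was under 0.05. *Panx1* stayed above 0 in every setting shown but passed the test in a part of them. Its direction was fixed by signals above the background level on every array. *Panx2* and *Panx3* rose above 0 when the median of undetected symbols served as the background level.

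Tissues for which the 2 undetected members are known were checked by their markers. Of 7 cartilage and bone markers on the array, 1 was detected on all 3 arrays, *Col2a1*, a cartilage collagen that is also made in early notochord and neural tissue, at 1.09 above background (standard error 0.17, n = 3). *Acan*, *Col10a1*, *Matn1*, *Runx2*, *Sp7* and *Ibsp* were not detected on all arrays. Of 7 neuron markers 1 was detected, *Gap43*, a growth cone protein, at 0.97 above background. *Tubb3*, *Map2*, *Snap25*, *Syt1*, *Elavl4* and *Nefl* were not. Both shares, 14.3%, are 1 of 7 genes, too few to be set apart from the 20.6% of all symbols. The part that cell types play in the levels of *Panx2* and *Panx3* was not tested. Of 10 markers of the embryonic region itself 7 were detected, with *T* (brachyury, a primitive streak and notochord factor) at 5.25 and *Otx2* (an anterior neural factor) at 4.48 above background. All 12 visceral endoderm markers were detected, among them *Spink3* at 6.59 and *Apoa1* at 6.56 above background. Of 9 extraembryonic ectoderm markers 5 were detected, among them *Cdx2* at 4.56 and *Rhox5* at 4.38, and *Elf5*, *Eomes*, *Ascl2* and *Gcm1* were detected on no array. Some of the detected markers, such as *Cdx2* and *Bmp4*, are also made in the embryo proper. The list alone does not settle whether extraembryonic ectoderm was present, which was not tested. Whether the *Panx1* signal comes from the embryo proper or from visceral endoderm was not tested.

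ATP released by pannexin channels acts on P2X receptors, which are ion channels, and P2Y receptors, which signal through G proteins. Enzymes on the cell surface break it down to adenosine, for which there are separate receptors and transporters. Of 44 genes in lists of these receptors, enzymes and transporters and of other wide-pored channels, 42 were found on the array, and 5 (11.9%) were detected on all 3 arrays, against 20.6% of all symbols. With detection on at least 2 arrays the shares were closer, at 21.4% against 25.6%, and on at least 1 array they were 31.0% against 33.0%. The median level over these genes was -0.60 relative to background, close to the -0.59 of all symbols.

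None of the 7 P2X receptors was detected on all arrays, and none passed in limma, beside 20.6% and 25.5% of all symbols. In limma 0 of them had an unadjusted p under 0.05, beside 8186 of 30854 symbols. A list of 7 genes is too short to set 0 apart from these shares. *P2rx4* had log2 signals of 6.83, 6.96 and 6.47 and was detected on replicates 1 and 2, with a detection p of 0.0238 on replicate 3. *P2rx7*, the receptor with which *Panx1* has been linked in immune cells, had detection p-values between 0.823 and 0.867. None of the 7 P2Y receptors was detected on all arrays or passed in limma, where again 0 had an unadjusted p under 0.05. The same limit holds for this list. *P2ry1* met the threshold on replicate 1 alone. These 3 receptors were singled out after their values were seen.

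Among the 4 adenosine receptors *Adora2b*, a receptor of low affinity that raises cyclic AMP, was detected on every array. Its log2 signals were 8.20, 8.27 and 7.55, and its level was 2.70 above background (standard error 0.17, n = 3). The signals on all 3 arrays were well above the background level, with replicate 3 lowest. *Adora1*, *Adora2a* and *Adora3* were detected on no array. The share detected on all arrays was 25.0% of this short list, beside 20.6% of all symbols.

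Of 8 enzymes of extracellular nucleotide breakdown, *Alpl*, listed under its older symbol *Akp2*, was detected on all arrays. It encodes tissue-nonspecific alkaline phosphatase, also a marker of pluripotent and germ cells. Its log2 signals were 7.70, 7.42 and 7.18, at a level 1.82 above background. *Nt5e*, which encodes the ectonucleotidase that makes adenosine from AMP, had signals of 7.23, 7.15 and 6.74, above the background level on each array. It was detected on replicates 1 and 2 and missed on replicate 3 with a combined detection p of 0.178 over 2 probes. *Nt5e* was named after its values were seen. Of 1903 symbols with 2 probes and a signal above background on all arrays, 879 (46.2%) were likewise not detected on all 3. The plasma membrane ATPases *Entpd1*, *Entpd3* and *Entpd8* were detected on no array, and *Entpd2* on replicate 3 alone. Of this short list 12.5% was detected on all arrays, beside 20.6% of all symbols.

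Nucleoside transporters were detected on all arrays in 2 of 6 cases (33.3%), beside 20.6% of all symbols. A list of 6 genes is too short to set these shares apart. Both were of the equilibrative family, of which *Slc29a2* was detected on replicates 1 and 2 alone. *Slc29a1*, a plasma membrane transporter, was 1.12 above background, with log2 signals of 7.30, 7.10 and 6.81. *Slc29a3*, a transporter of lysosomes and mitochondria, was 0.75 above it, with signals of 7.03, 6.84 and 6.83. The concentrative transporters *Slc28a1*, *Slc28a2* and *Slc28a3* were not detected on all arrays.

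Other channels through which ATP or other small molecules can pass were represented by 10 of 12 genes, with *Calhm1* and *Calhm3* not matched to a symbol. *Lrrc8d*, a subunit of the volume-regulated anion channel, was detected on all arrays at 8.61, 8.63 and 8.18 on the log2 scale, a level 3.32 above background. *Lrrc8a*, the subunit without which that channel does not work, had signals of 6.86, 6.74 and 6.48 and was detected on replicates 1 and 2. The 4 *Calhm* genes on the array and *Slc17a9*, the vesicular nucleotide transporter, were detected on no array.

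**Figure D4:**
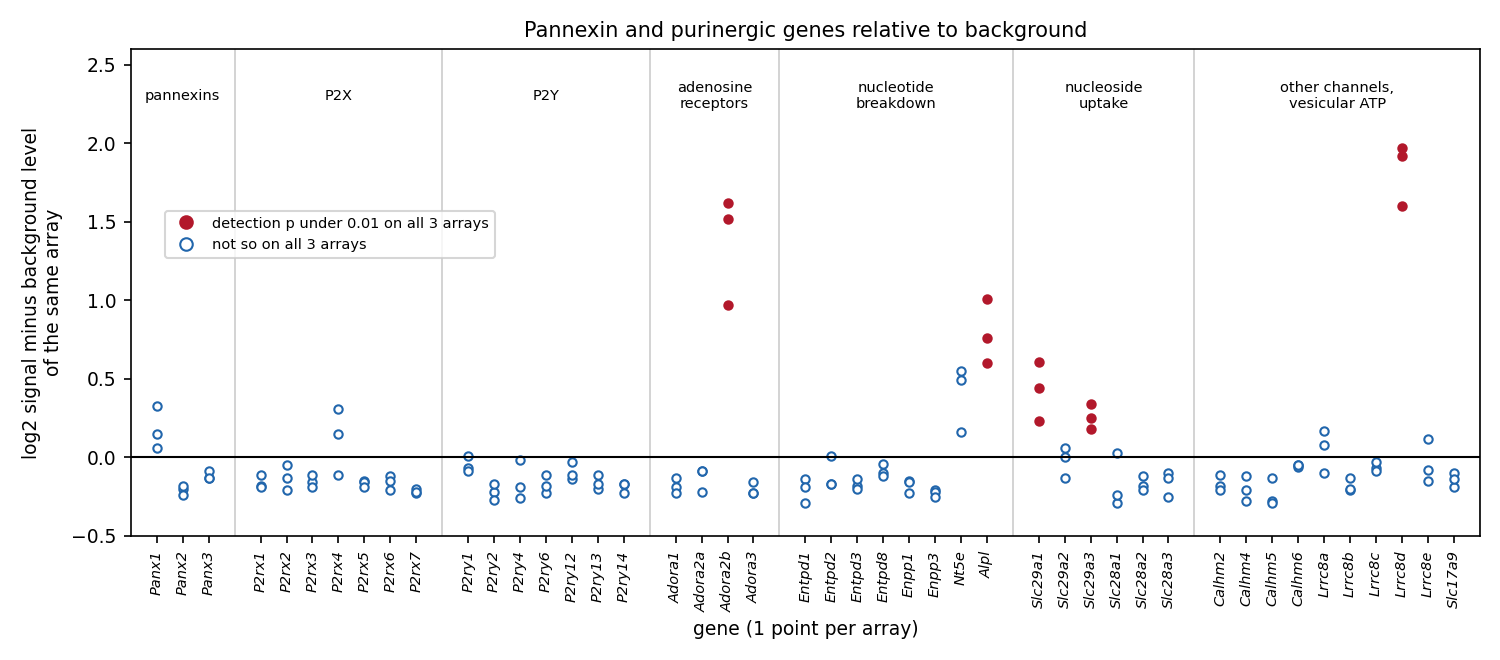
Log2 signal minus the background level of the same array (vertical axis) for pannexin and purinergic genes (horizontal axis), with 1 point per array and filled points for genes detected on all 3 arrays. The points of *Adora2b*, *Alpl*, *Slc29a1*, *Slc29a3* and *Lrrc8d* are filled, and *Panx1* and *Nt5e* lie above 0 on all arrays without being detected on all of them.

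Of 3 genes for proteins reported to bind or phosphorylate *Panx1*, none was detected on all arrays, although limma called all 3 and the mean signal of each was above the background level on every array. Over all symbols these shares were 20.6%, 25.5% and 26.3%, and 3 genes are too few to be set apart from them. *Dpysl2*, a cytoskeletal protein of 4 probes, had signals of 8.88, 8.68 and 8.48 and missed the threshold on replicate 2 with a combined detection p of 0.0125. *Actr3*, an actin-nucleating subunit with 2 probes, had signals of 8.16, 7.81 and 7.40 and detection p-values of 0.0648, 0.413 and 0.0416. *Src*, a tyrosine kinase with 3 probes, had signals of 7.02, 6.84 and 6.70 and was detected on replicate 1. For *Panx1* and these genes with several probes, the mean signal and the combined detection p thus gave different calls.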

How the data were processed

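All 3 arrays formed 1 group of replicates, as mapped from the sample labels. The authors deposited, per gene symbol, log2 signals that were not normalized between arrays, the mean number of beads, a bead standard error as intensity on the linear scale, and a detection p-value. The labels and the paper name Partek, and the normalization, software version and genome build are not given in the sources used here, so no coordinates are printed. No column was left without a sample.

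Up to 3, the number of probes of a symbol was the lowest that met 2 conditions. Its mean bead numbers became whole, and each detection p fell on the steps of a sum of that many p-values. Higher numbers were taken from the bead numbers alone, for symbols that met both conditions at no number up to 3. These rules gave 1 probe for 21980 symbols, 2 for 5283, 3 for 2361, more for 1098 and no number for 132. These are lower limits. Signals were corrected with normexp from the detection p of 1-probe symbols, an offset of 16 was added, and quantile normalization was applied. The difference between level and background level was tested in limma (lmFit, eBayes, one-sided, Benjamini-Hochberg over 30854 symbols, threshold 0.05), which was tested on simulated data. The number of arrays limits the precision.

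The members and lists were chosen with earlier results of these data known. All members are named. From each list the 2 genes highest above background among those detected on all arrays are named with values, and *P2rx4*, *P2rx7*, *P2ry1*, *Nt5e*, *Lrrc8a*, *Dpysl2*, *Actr3* and *Src* were given values after these had been seen. Of 104 listed genes, 9 were matched through a single older symbol in the RefSeq table of GRCm38.p6 and 4 were not matched. The values of some listed genes are not reported here. Alternatives were other detection thresholds, fewer arrays, the limma test, other normalizations, offsets and background levels, a filter on low values, leaving out each replicate and, added later, a rule on the mean signal. R 4.3.3, limma 3.58.1, Python 3.11.15, numpy 2.4.6, pandas 2.3.3 and matplotlib 3.10.9 were used.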

Additional observations from a re-analysis of the deposited data

How the results depend on the processing

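The count of pannexin genes above background was 0 and became 1, always *Panx1*, with detection on at least 2 arrays or at least 1 array, in the limma test, and when the mean signal had to exceed the background level of each array, a rule added after the data had been seen. Leaving out a replicate gave 0 to 1, and it was 1 without replicate 2. It stayed 0 at detection p thresholds of 0.05 and 0.001. The *Panx1* level kept its direction in all 10 alternatives and its call in 7. Its signal was above the background level on every array, and no setting changed the order of signals within an array. The direction was therefore fixed in advance, and only the call was open. The level was 0.18 (adjusted p 0.0833 from limma) with the deposited signals and, since the background level moves with them, the same with median scaling. It was also 0.18 after quantile normalization alone, where it passed (adjusted p 0.0114 from limma), and 0.28 with an offset of 50. Against the median level of single-probe symbols with a detection p above 0.5, a lower reference by construction, it was 1.33. Without a replicate it ranged from 0.35 to 0.69, and the call was lost without replicate 1. *Panx2* and *Panx3* were below background in 9 of 10 alternatives each, as fixed by signals below the background level on every array. They were above it, at 0.04 and 0.29, when that lower reference served as background, a direction fixed in advance for *Panx3*. Without a replicate they ranged from -0.79 to -0.70 and from -0.58 to -0.45.

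Of the purinergic lists, 5 genes were detected on all arrays, 9 on at least 2 arrays and 13 on at least 1 array, which are 11.9%, 21.4% and 31.0% beside 20.6%, 25.6% and 33.0% of all symbols. Without a replicate it was 5 to 9, and 9 without replicate 3. Over all symbols the count of 6357 became 10172 with detection on at least 1 array, and 6524 to 7427 without a replicate. Asking for fewer arrays, or leaving 1 out, can only keep or raise a count of detected genes, that of the pannexins included. The direction of these rises was therefore fixed in advance. Where the number of arrays asked for is the same, the cause of the differences was not tested. No paired analysis was possible because all arrays belong to 1 group. Signal over background is the limit of these calls, since a gene near the background level, such as *Panx1*, passes or fails with the setting.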
